A study of Mus musculus with 35 samples.

Results

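The BCL2 family decides whether a cell's mitochondria release the proteins that start apoptosis, and 10 of its genes were followed here in mouse acute myeloid leukemia cells by RNA sequencing and by sequencing of ribosome footprints, the stretches of mRNA that translating ribosomes protect. The 10 genes were taken by name from 55487 genes in the count tables and fall into 3 roles. The survival genes are Bcl2, Bcl2l1 (which encodes BCL-XL) and Mcl1. The effector genes are Bax and Bak1. The BH3-only genes are Bbc3 (PUMA), Pmaip1 (NOXA), Bcl2l11 (BIM), Bid and Bad. All 10 passed the filter on low counts in both assays, so each was tested in every comparison.

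As background, BAX and BAK form pores in the outer mitochondrial membrane. BCL2, BCL-XL and MCL1 hold them and the BH3-only proteins in check, and BH3-only proteins, several of them made or activated under stress, release that hold. Cytochrome c that leaves through the pores builds the apoptosome, which activates caspases. Myeloid leukemia cells often lean on BCL2 and MCL1 for survival, and both are drug targets in this disease.

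The cells carried the MLL-AF9 fusion oncogene and green fluorescent protein (GFP), came from a leukemic mouse, were expanded in culture and were injected into male recipients aged 8 to 10 weeks. They held either a guide RNA against Ogfod1 (sgOgfod1), a prolyl hydroxylase of a ribosomal protein, or a scrambled guide (sgScramble). Whether the guided cells were clones, and which other alleles the recipients carried, is not given in the sources used here. Treated mice ate a diet without branched chain amino acids (BCAA) and received 5+3 chemotherapy, meaning 5 daily doses of cytarabine (100 mg/kg), with doxorubicin (3 mg/kg) added on days 1 to 3. Vehicle mice ate the standard amino acid diet and received PBS. Diet and chemotherapy changed together and cannot be told apart, so "treated" below always means both. Marrow was taken at the peak of the response, and live GFP-positive cells were sorted. RNA was measured in 6 treated sgOgfod1, 7 treated sgScramble, 5 vehicle sgOgfod1 and 5 vehicle sgScramble mice. Footprints were measured in 2 treated sgOgfod1, 4 treated sgScramble, 3 vehicle sgOgfod1 and 3 vehicle sgScramble mice of the same set.

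Libraries held 31921768 to 142694163 counts in RNA and 5705585 to 14642692 in footprints. Levels are given as counts-per-million (CPM) of the scaled library. The Ogfod1 guide was visible in the footprints on Ogfod1 itself, at 1.44 and 2.91 CPM in treated sgOgfod1 mice against 12.4 to 17.5 CPM in treated sgScramble mice, and at 1.67 to 2.98 CPM in vehicle sgOgfod1 mice against 13.7 to 15.5 CPM in vehicle sgScramble mice. The 12 markers of leukemic myeloid progenitors summed to 4280 to 9000 RNA CPM, and none of them was at 0 in every library of a group. Macrophage and neutrophil markers moved with treatment. The 16 macrophage markers summed to 989 to 2390 RNA CPM in treated sgOgfod1 and 1010 to 6640 in treated sgScramble mice, against 693 to 1030 in vehicle sgOgfod1 and 873 to 1250 in vehicle sgScramble mice. The 12 neutrophil markers summed to 17800 to 82800 and 15400 to 53300 RNA CPM in the treated groups, against 6640 to 16700 and 6550 to 12600 in the vehicle groups, in the same order. Treated sgScramble replicates 4, 6 and 7 and treated sgOgfod1 replicate 3 had the most macrophage marker RNA. None of these 4 mice has a footprint library. Treated sgScramble replicate 4 and treated sgOgfod1 replicate 3 were also known from earlier results of these data to stand apart from the other RNA libraries.

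With treatment, RNA of the survival gene Bcl2 fell, while RNA of the survival gene Bcl2l1 and of the effector gene Bax rose, in cells with either guide. The rise of Bcl2l11 passed the threshold in sgScramble cells alone and that of Pmaip1 in sgOgfod1 cells alone. With the other guide each was at 0.34 in log2 without passing, and neither difference between the guides passed as an interaction. A gene was called changed at an adjusted p under 0.05 (edgeR quasi-likelihood test, Benjamini-Hochberg adjustment over all genes tested). In treated sgOgfod1 cells 4 of the 10 genes were called, beside 9.87% of all 21474 genes tested, with 3 higher (5.69% of all genes) and 1 lower (4.18%). In treated sgScramble cells 4 were called as well, beside 12.9% of all genes, again with 3 higher (8.6%) and 1 lower (4.34%). The median log2 fold change in sgOgfod1 cells was 0.34 over the 10 genes and -0.00222 over all genes. In sgScramble cells it was 0.44 over the 10 genes and -0.00588 over all genes. Treated libraries lay apart from all vehicle libraries, without overlap, for 3 higher genes in sgOgfod1 cells (background 4.41%) and 4 in sgScramble cells (5.94%), and for 1 lower gene in each (5.17% and 6.35%). Macrophage markers rose alongside, 11 of 16 in sgOgfod1 and 15 of 16 in sgScramble cells, and neutrophil markers did so for 9 and 10 of 12. Of the 12 progenitor markers 1 rose and 4 fell in sgOgfod1 cells and 1 rose and 3 fell in sgScramble cells. Of 9 erythroid markers tested 0 rose and 5 fell in sgOgfod1 cells and 1 rose and 1 fell in sgScramble cells. They summed to 1.27 to 4.30 RNA CPM in treated sgOgfod1 and 1.47 to 12.8 in treated sgScramble mice, against 10.5 to 26.7 in vehicle sgOgfod1 and 1.20 to 3.28 in vehicle sgScramble mice. Of 9 T and NK cell markers 0 were called in sgOgfod1 cells and 3 rose in sgScramble cells, with sums of 26.9 to 146 RNA CPM over all groups. The part of these markers in the results was not tested.

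**Figure D1:**
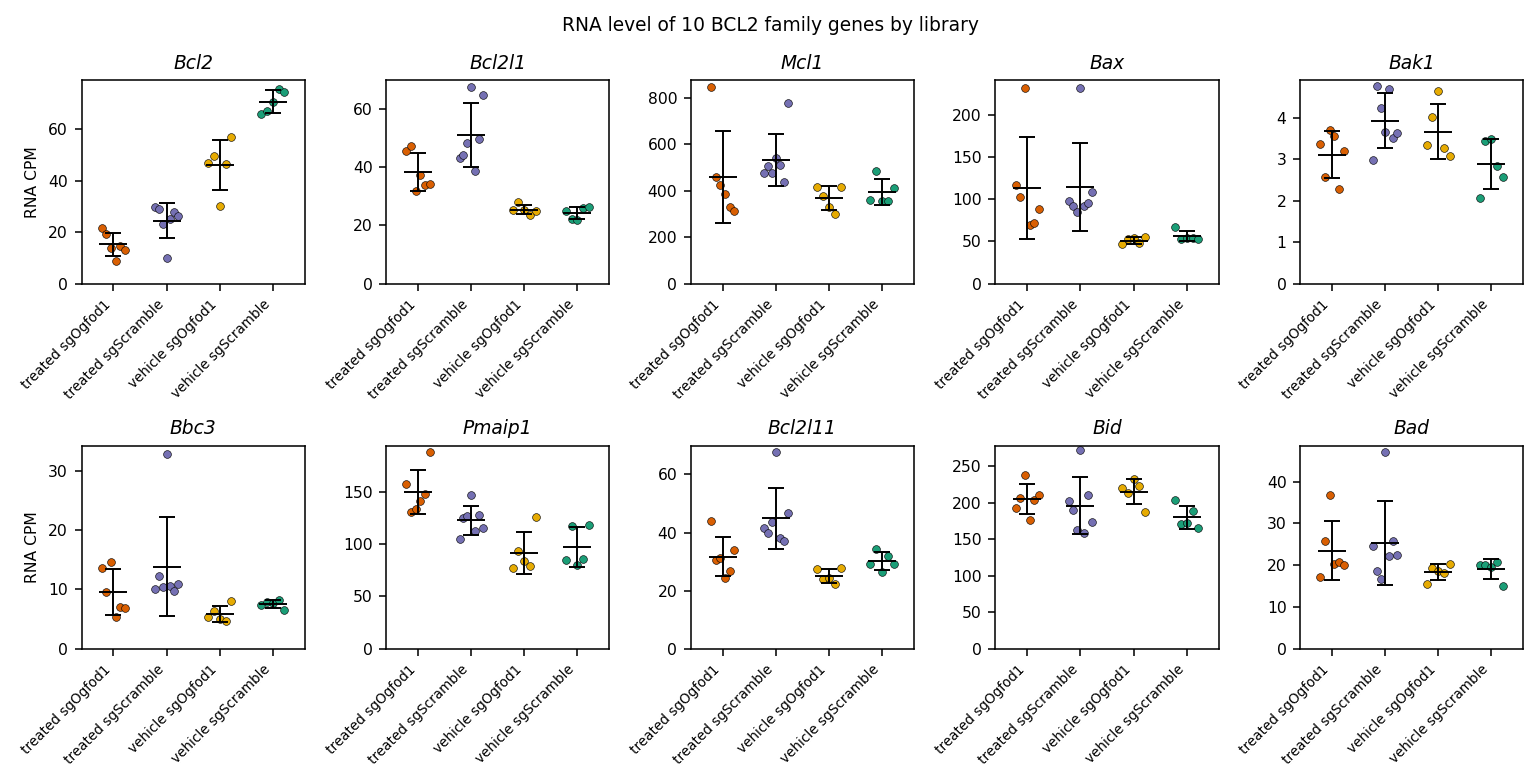
RNA level of the 10 genes in CPM, each panel with its own linear axis from 0. Points are libraries (1 mouse each), horizontal lines are group means and bars are SD, with 6, 7, 5 and 5 libraries from left to right. Bcl2 is lower in both treated groups, Bcl2l1 and Bax are higher, and the 2 points at 232 CPM for Bax are treated sgOgfod1 replicate 3 and treated sgScramble replicate 4.

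Bcl2 (ENSMUSG00000057329, chromosome 1, 106538178 to 106714274, minus strand, GRCm38), the founding survival gene of the family, was the only one of the 10 to fall in RNA past the threshold. Its RNA level ran from 8.89 to 21.5 CPM with a median of 14.3 in treated sgOgfod1 mice, against 46.8, 49.5, 30.2, 46.4 and 57.0 CPM in vehicle sgOgfod1 mice. It ran from 9.89 to 29.7 CPM with a median of 26.3 in treated sgScramble mice, against 65.7, 67.1, 70.4, 75.6 and 74.4 CPM in vehicle sgScramble mice. Every treated mouse thus lay below every vehicle mouse of its guide, and treated sgScramble replicate 4 was the lowest of its group. The log2 fold change was -1.60 ± 0.23 (SE) in sgOgfod1 cells (edgeR adjusted p = 0.00015) and -1.53 ± 0.22 in sgScramble cells (adjusted p = 0.000106). Without the 4 macrophage-rich libraries it was -1.56 and -1.41 in the same order, both still called. In sgOgfod1 cells this leaves out treated replicate 3 alone. In bulk samples, fewer cells of a type and less RNA per cell cannot be told apart.

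Footprints on Bcl2 moved the same way on few reads. They stood at 0.802 and 1.85 CPM in treated sgOgfod1 mice, against 3.57, 4.63 and 3.52 CPM in vehicle sgOgfod1 mice. They stood at 1.63, 2.50, 2.36 and 2.03 CPM in treated sgScramble mice, against 6.57, 4.37 and 4.13 CPM in vehicle sgScramble mice. These levels rest on 8 to 66 reads per library, and neither pair of groups overlapped. The log2 fold change was -1.53 ± 0.36 in sgOgfod1 cells (adjusted p = 0.0161) and -1.25 ± 0.27 in sgScramble cells (adjusted p = 0.00654). The size in sgOgfod1 cells rests on 2 treated mice. It was -1.04 without treated sgOgfod1 replicate 4, where the call was lost (adjusted p = 0.141), and -2.24 without replicate 5. Either fit leaves 1 treated mouse that is assumed to vary like the other groups. The call was lost in sgScramble cells without vehicle sgScramble replicate 2 (adjusted p = 0.0571). An exon of Bcl2 overlaps D630008O14Rik on the other strand, and the strand setting of the counting is not given in the sources used here, so reads of that gene may be counted in.

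Bcl2l1 (ENSMUSG00000007659, chromosome 2, 152780668 to 152831728, minus strand) moved opposite to Bcl2. In RNA the level ran from 32 to 47.2 CPM with a median of 35.8 in treated sgOgfod1 mice, against 25.3, 28.1, 25.2, 23.6 and 24.9 CPM in vehicle sgOgfod1 mice. It ran from 38.8 to 67.7 CPM with a median of 48.5 in treated sgScramble mice, against 24.8, 22.2, 21.8, 26.1 and 26.5 CPM in vehicle sgScramble mice. No treated mouse overlapped the vehicle mice of its guide, and the vehicle levels were nearly the same with either guide. The log2 fold change was 0.59 ± 0.14 in sgOgfod1 cells (adjusted p = 0.00924) and 1.07 ± 0.14 in sgScramble cells (adjusted p = 4.75e-05). The difference between these changes, tested as an interaction, was -0.48 ± 0.20 and did not pass (adjusted p = 1). Treated sgScramble replicates 4 and 7, at 67.7 and 65.0 CPM, were both macrophage-rich, and without the 4 such libraries the change in sgScramble cells was 0.84 (adjusted p = 7.99e-05).

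Footprints on Bcl2l1 were 5.52 and 5.46 CPM in treated sgOgfod1 mice, against 2.98, 2.64 and 4.63 CPM in vehicle sgOgfod1 mice. They were 6.42, 6.32, 6.48 and 6.78 CPM in treated sgScramble mice, against 4.58, 4.75 and 4.77 CPM in vehicle sgScramble mice. The groups did not overlap in either case, yet neither difference passed, at 0.62 ± 0.23 (adjusted p = 0.109) and 0.47 ± 0.19 (adjusted p = 0.106) in the same order. Without vehicle sgOgfod1 replicate 5 the sgOgfod1 change was 0.95 and passed (adjusted p = 0.0285).

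The ratio between these survival genes moved with treatment. Counted per length of exon, the RNA of Bcl2l1 was 4.22 to 8.39 times that of Bcl2 in treated sgOgfod1 mice and 0.873 to 1.67 times in vehicle sgOgfod1 mice. It was 2.91 to 13.7 times that of Bcl2 in treated sgScramble mice and 0.618 to 0.755 times in vehicle sgScramble mice. Bcl2 was the more abundant of them per length in all 5 vehicle sgScramble mice, and Bcl2l1 was in every treated mouse and in 4 of 5 vehicle sgOgfod1 mice. The 13.7 belongs to treated sgScramble replicate 4, and the other 6 treated sgScramble mice reached at most 4.94.

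Mcl1 (ENSMUSG00000038612, chromosome 3, 95658788 to 95663176, plus strand), whose protein is short-lived and tightly controlled by translation and degradation, had the most RNA per length of the 10. Its RNA level ran from 311 to 845 CPM with a median of 405 in treated sgOgfod1 mice, against 415, 375, 329, 299 and 415 CPM in vehicle sgOgfod1 mice. It ran from 437 to 776 CPM with a median of 506 in treated sgScramble mice, against 359, 485, 357, 354 and 412 CPM in vehicle sgScramble mice. The groups overlapped and the changes did not pass, at 0.32 ± 0.20 (adjusted p = 0.331) with the Ogfod1 guide and 0.43 ± 0.20 (adjusted p = 0.159) with the scrambled guide. Without treated sgOgfod1 replicate 1, at 845 CPM, the change with the Ogfod1 guide was 0.07. Footprints on Mcl1 were 54.3 and 57.5 CPM in treated sgOgfod1 mice, against 61.5, 46.1 and 56.1 CPM in vehicle sgOgfod1 mice. They were 66.7, 75.0, 79.2 and 66.9 CPM in treated sgScramble mice, against 67.2, 64.4 and 63.0 CPM in vehicle sgScramble mice. These footprint levels overlapped, with changes of 0.03 ± 0.13 and 0.15 ± 0.11 that did not pass.

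**Figure D2:**
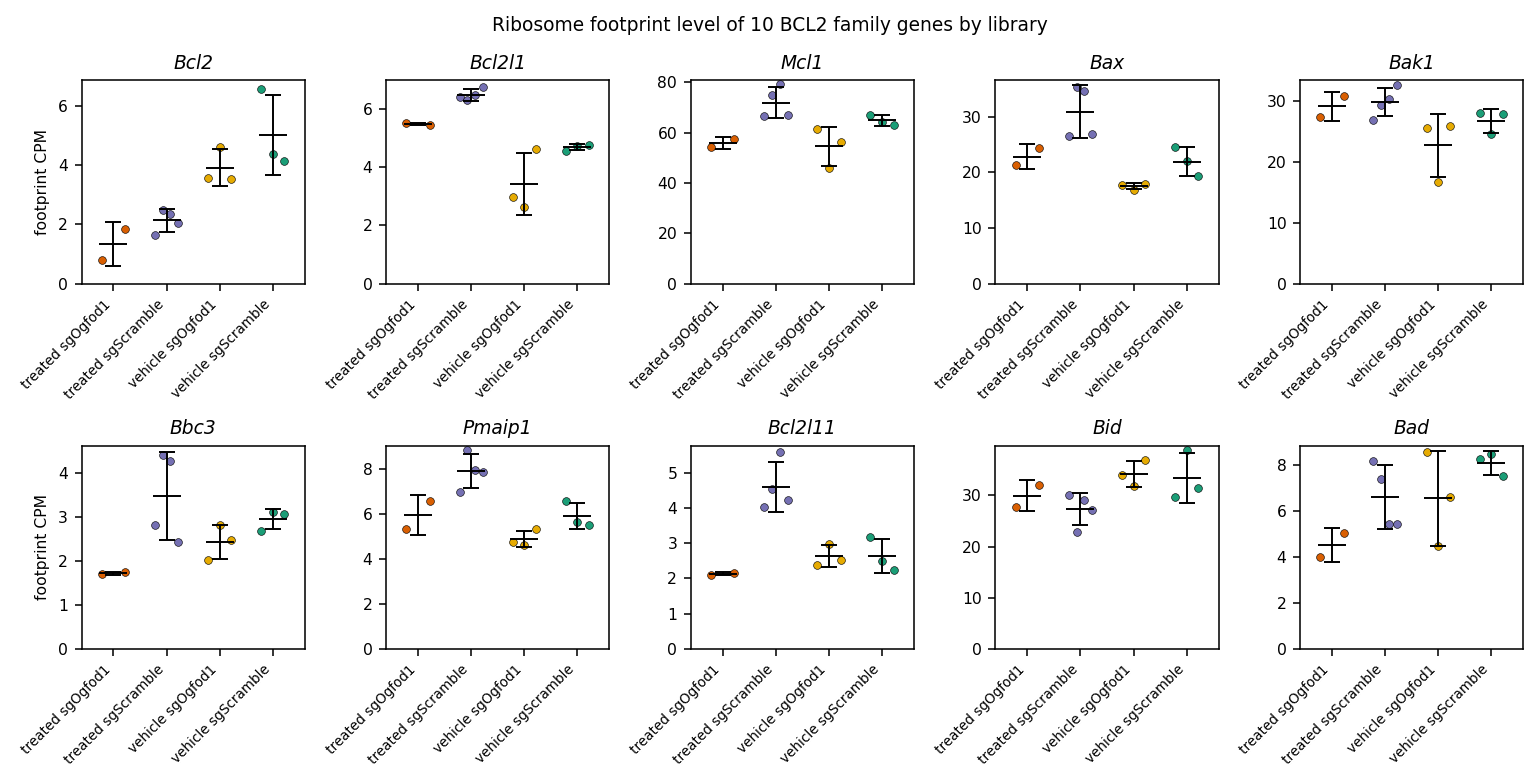
Ribosome footprint level of the 10 genes in CPM, each panel with its own linear axis from 0. Points are libraries (1 mouse each), lines are means and bars are SD, with 2, 4, 3 and 3 libraries from left to right. Bcl2 is lower in both treated groups, and Bcl2l11 is higher in treated sgScramble mice than in the other 3 groups.

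Among the effectors, Bax (ENSMUSG00000003873, chromosome 7, 45461697 to 45466898, minus strand) rose in RNA with either guide. In RNA the level ran from 69.6 to 232 CPM with a median of 96.0 in treated sgOgfod1 mice, against 46.6, 52.5, 53.5, 47.5 and 54.9 CPM in vehicle sgOgfod1 mice. It ran from 85.0 to 232 CPM with a median of 95.8 in treated sgScramble mice, against 67.0, 52.9, 54.0, 54.4 and 53.1 CPM in vehicle sgScramble mice. Every treated mouse lay above every vehicle mouse, and 1 treated mouse of each guide stood at 232 CPM, far above its group. The log2 fold change was 1.16 ± 0.27 in sgOgfod1 cells (adjusted p = 0.00874) and 1.03 ± 0.27 in sgScramble cells (adjusted p = 0.012). Without the 2 libraries that stand apart it was 0.83 and 0.76 in the same order, both still called. Without the 4 macrophage-rich libraries it was 0.83 and 0.69, and in the 12 mice that also have footprints it was 0.43 and 0.77, all called. In sgOgfod1 cells the first 2 of these subsets leave out the same single mouse, treated replicate 3, and are not separate checks. The treated sgOgfod1 mice that stayed in had up to 2180 macrophage marker CPM, against at most 1030 in vehicle sgOgfod1 mice. The part of macrophage or neutrophil RNA in these values was not tested further.

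Footprints on Bax were 21.3 and 24.4 CPM in treated sgOgfod1 mice, against 17.7, 16.9 and 18.0 CPM in vehicle sgOgfod1 mice. They were 26.6, 35.3, 34.7 and 26.9 CPM in treated sgScramble mice, against 24.5, 22.0 and 19.3 CPM in vehicle sgScramble mice. Treated mice were higher without overlap in both cases. The change was 0.38 ± 0.16 in sgOgfod1 cells, which did not pass (adjusted p = 0.16), and 0.49 ± 0.13 in sgScramble cells, which did (adjusted p = 0.02). That call was lost without vehicle sgScramble replicate 3 or 5 or treated sgScramble replicate 2 or 3, with an adjusted p of up to 0.0982. Bax overlaps the predicted gene Gm45808 on its own strand, so their reads cannot be fully told apart.

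Bak1 (ENSMUSG00000057789, chromosome 17, 27019810 to 27029009, minus strand), the other effector, had the least RNA per length of the 10 but not the fewest footprints. Its RNA level ran from 2.28 to 3.71 CPM in treated sgOgfod1 mice, against 3.07 to 4.64 CPM in vehicle sgOgfod1 mice. It ran from 2.98 to 4.77 CPM in treated sgScramble mice, against 2.07 to 3.48 CPM in vehicle sgScramble mice. Footprints on Bak1 were 27.4 and 30.8 CPM in treated sgOgfod1 mice, against 25.6, 16.7 and 25.8 CPM in vehicle sgOgfod1 mice. They were 26.9, 29.4, 30.3 and 32.6 CPM in treated sgScramble mice, against 28, 24.5 and 27.8 CPM in vehicle sgScramble mice. No treatment change of Bak1 passed in either assay, with log2 values of -0.24 ± 0.20 and 0.44 ± 0.19 in RNA and 0.34 ± 0.16 and 0.15 ± 0.14 in footprints, sgOgfod1 before sgScramble. Its exons overlap Ggnbp1 on the other strand.

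Of the BH3-only genes, Bcl2l11 (ENSMUSG00000027381, chromosome 2, 128126038 to 128162547, plus strand) moved most clearly in sgScramble cells. In RNA the level ran from 24.3 to 43.8 CPM with a median of 30.9 in treated sgOgfod1 mice, against 27.4, 23.9, 24.4, 22.2 and 27.9 CPM in vehicle sgOgfod1 mice. It ran from 37.1 to 67.6 CPM with a median of 41.5 in treated sgScramble mice, against 29.3, 34.4, 26.4, 31.8 and 29.1 CPM in vehicle sgScramble mice. The sgScramble groups did not overlap and the sgOgfod1 groups did. The change was 0.34 ± 0.15 in sgOgfod1 cells (adjusted p = 0.167) and 0.57 ± 0.15 in sgScramble cells (adjusted p = 0.0131), which alone passed. The difference between these RNA changes was -0.24 ± 0.21 and did not pass as an interaction. With a replicate block the sgScramble call was lost (0.57, adjusted p = 0.0586). Without the 4 macrophage-rich libraries the change in sgScramble cells was 0.42 (adjusted p = 0.0479).

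Footprints on Bcl2l11 were 2.11 and 2.16 CPM in treated sgOgfod1 mice, against 2.38, 2.98 and 2.53 CPM in vehicle sgOgfod1 mice. They were 4.03, 4.53, 5.59 and 4.21 CPM in treated sgScramble mice, against 3.18, 2.50 and 2.23 CPM in vehicle sgScramble mice. Treated mice were thus lowest with the Ogfod1 guide and highest with the scrambled guide. The change was -0.28 ± 0.28 in sgOgfod1 cells (adjusted p = 0.603) and 0.79 ± 0.22 in sgScramble cells (adjusted p = 0.0253). The call in sgScramble cells was lost without vehicle sgScramble replicate 3 or 5 or treated sgScramble replicate 3, with an adjusted p of up to 0.103, with DESeq2 (adjusted p = 0.0586) and with no filter on low counts (adjusted p = 0.0685). The difference between the changes was -1.07 ± 0.36 and did not pass as an interaction (adjusted p = 0.375).

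Pmaip1 (ENSMUSG00000024521, chromosome 18, 66458533 to 66465565, plus strand), which encodes a BH3-only protein that binds MCL1, rose in RNA in sgOgfod1 cells. Its RNA level ran from 131 to 188 CPM with a median of 145 in treated sgOgfod1 mice, against 76.7, 93.2, 83.5, 78.7 and 126 CPM in vehicle sgOgfod1 mice. It ran from 105 to 147 CPM with a median of 125 in treated sgScramble mice, against 84.6, 117, 80.4, 85.5 and 118 CPM in vehicle sgScramble mice. The sgOgfod1 groups did not overlap, and the change there was 0.71 ± 0.14 (adjusted p = 0.00271). In sgScramble cells it was 0.34 ± 0.14 and did not pass (adjusted p = 0.111), and the interaction, 0.37 ± 0.20, did not pass (adjusted p = 1). In the 12 mice with footprints the sgOgfod1 change was 0.58 and was not called (adjusted p = 0.142). The RNA change in sgScramble cells was called by limma voom with sample weights (0.32, adjusted p = 0.0433). Footprint changes on Pmaip1 were 0.27 ± 0.20 and 0.42 ± 0.16, sgOgfod1 before sgScramble, and neither passed. Treated mice had more of these footprints than vehicle mice without overlap with either guide. With protein-coding genes alone the sgScramble footprint change was called (0.49, edgeR adjusted p = 0.0412).

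Bbc3 (ENSMUSG00000002083, chromosome 7, 16308393 to 16318205, plus strand), a textbook target of p53, was higher in most treated mice without passing the threshold. In RNA the level ran from 5.31 to 14.7 CPM with a median of 8.31 in treated sgOgfod1 mice, against 5.36, 6.31, 5.09, 4.65 and 8.08 CPM in vehicle sgOgfod1 mice. It ran from 9.79 to 32.8 CPM with a median of 10.6 in treated sgScramble mice, against 7.32, 7.91, 7.74, 8.29 and 6.54 CPM in vehicle sgScramble mice. The sgScramble groups did not overlap, and treated sgScramble replicate 4 was the highest at 32.8 CPM. The change was 0.69 ± 0.31 (adjusted p = 0.156) with the Ogfod1 guide and 0.87 ± 0.30 (adjusted p = 0.0551) with the scrambled guide. Leaving out each library in turn gave sgScramble changes of 0.50 to 0.93 (adjusted p from 0.045 to 0.131), lowest without treated sgScramble replicate 4. Only 2 of these 12 fits called it, those without treated sgScramble replicate 1 or 3. DESeq2 (adjusted p = 0.0238) and limma voom with sample weights (adjusted p = 0.00417) called it on all libraries. Footprints on Bbc3 were 1.70 and 1.75 CPM in treated sgOgfod1 mice, against 2.02, 2.81 and 2.47 CPM in vehicle sgOgfod1 mice. They were 2.83, 4.41, 4.27 and 2.44 CPM in treated sgScramble mice, against 2.69, 3.12 and 3.07 CPM in vehicle sgScramble mice, and neither footprint change passed.

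Bid (ENSMUSG00000004446, chromosome 6, 120891930 to 120916853, minus strand), which links death receptors to mitochondria, and Bad (ENSMUSG00000024959, chromosome 19, 6941861 to 6951899, plus strand), which is controlled by phosphorylation, showed no called treatment change. Bid RNA averaged 205 ± 20.7 CPM in treated sgOgfod1 mice (SD, n = 6) and 215 ± 16.8 in vehicle sgOgfod1 mice (n = 5). It averaged 195 ± 38.9 CPM in treated sgScramble mice (n = 7) and 180 ± 15.6 in vehicle sgScramble mice (n = 5). Changes of Bid were -0.07 ± 0.12 and 0.12 ± 0.12 in RNA and -0.20 ± 0.15 and -0.29 ± 0.13 in footprints, sgOgfod1 before sgScramble, none of them called. Bad RNA averaged 23.5 ± 7.12 CPM in treated sgOgfod1 and 18.4 ± 1.84 in vehicle sgOgfod1 mice. It averaged 25.3 ± 10.1 CPM in treated sgScramble and 19.1 ± 2.29 in vehicle sgScramble mice. Bad had opposite signs in the assays, with changes of 0.35 ± 0.22 and 0.41 ± 0.21 in RNA and of -0.55 ± 0.26 and -0.28 ± 0.21 in footprints, sgOgfod1 before sgScramble, none of them called. The RNA values come from 23 mice and the footprints from 12 of them. Treated sgOgfod1 replicate 3 (36.8 CPM) and treated sgScramble replicate 4 (47.0 CPM) have no footprint library. Leaving out each library in turn gave Bad RNA changes of 0.19 to 0.44 and 0.18 to 0.48 in the same order. Bid overlaps Bcl2l13 and Bad overlaps Gpr137 on the other strand.

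**Figure D3:**
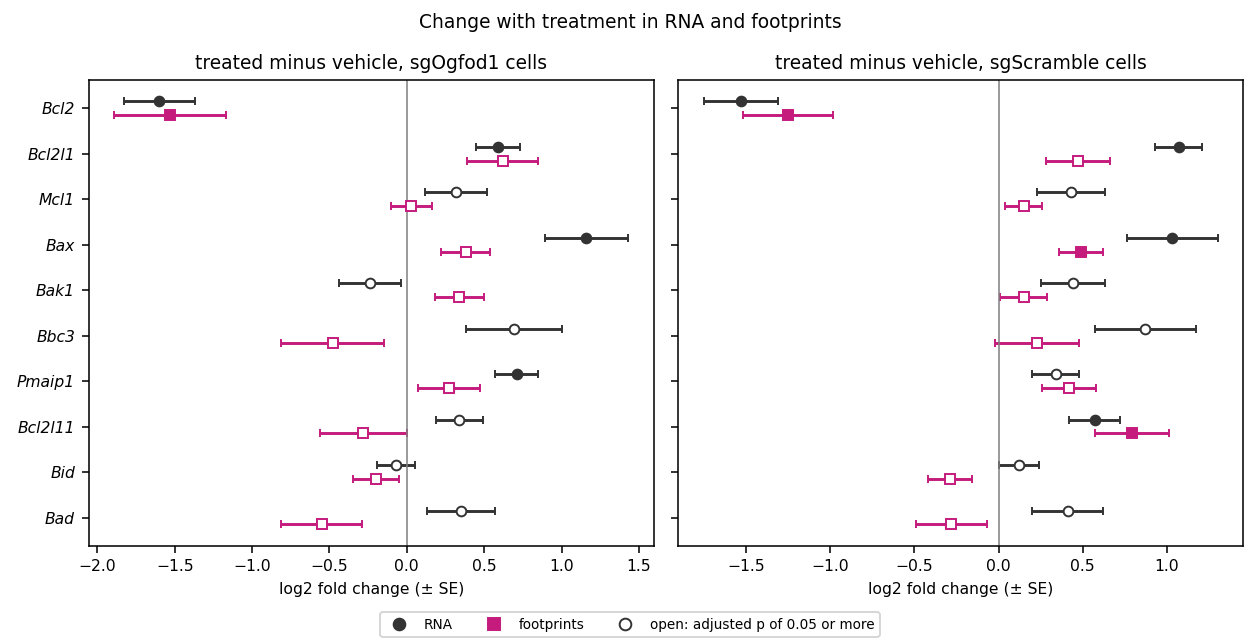
Log2 fold change with treatment, treated minus vehicle, in RNA (circles) and footprints (squares) for the 10 genes, with bars of 1 SE. Filled symbols passed an adjusted p under 0.05 (edgeR). Bcl2 lies left of 0 in all 4 cases, and Bcl2l1 and Bax lie right of it in all 4.

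Seen together, footprints gave fewer calls than RNA. In footprints 1 of the 10 genes was called with treatment in sgOgfod1 cells, Bcl2, beside 8.22% of 18290 genes tested. In sgScramble cells 3 were called, Bcl2, Bax and Bcl2l11, beside 15.6%. Footprints come from fewer mice than RNA, so the counts of calls in the assays are not like for like. Treated and vehicle mice did not overlap for 4 genes with more footprints in sgOgfod1 cells (background 17.6%) and 4 in sgScramble cells (15.1%), and for 3 and 1 with fewer (19.1% and 16.1%). Library numbers from 17 up occur only among treated mice, and the labels do not call them a batch. With a term for them, every RNA call with treatment remained, but of the footprint calls only Bcl2 in sgScramble cells did (-1.29 ± 0.35, adjusted p = 0.0339). The lost calls stood at -1.62 ± 0.56 for Bcl2 in sgOgfod1 cells and 0.49 ± 0.16 for Bax and 0.69 ± 0.26 for Bcl2l11 in sgScramble cells. Both treated sgOgfod1 footprint libraries carry such numbers. The number of the 10 genes with a log2 fold change above 0 was the same under TMM scaling, RLE scaling and protein-coding genes alone in each of these 4 comparisons: 7 in RNA of sgOgfod1 cells, 9 in RNA of sgScramble cells, 5 in footprints of sgOgfod1 cells and 7 in footprints of sgScramble cells. The 5 in footprints of sgOgfod1 cells became 4 under voom and under the term for library numbers from 17 up.

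The Ogfod1 guide by itself moved few of these genes past the threshold. In RNA 0 of 10 were called in vehicle mice, beside 0.116% of all genes, with 1 gene at an unadjusted p under 0.05, as were 4.62% of all genes. All 9 erythroid markers tested were above 0 here, with 0 called, 7 at an unadjusted p under 0.05 and a median of 3.15, and their part was not tested. The 1 family gene was Bcl2, which was lower in vehicle sgOgfod1 than in every vehicle sgScramble mouse, at -0.62 ± 0.24 (adjusted p = 0.846). In 1.69% of all genes the sgOgfod1 mice lay below all sgScramble mice in this way. In treated mice 0 of 10 were called in RNA, beside 0.391% of all genes, with 4 genes at an unadjusted p under 0.05, as were 12.9% of all genes. Bcl2 was at -0.68 ± 0.21 (adjusted p = 0.146), Bcl2l1 at -0.41 ± 0.13 (adjusted p = 0.157), Bcl2l11 at -0.50 ± 0.14 (adjusted p = 0.116) and Pmaip1 at 0.29 ± 0.13 (adjusted p = 0.347). Macrophage markers were also on the lower side in treated sgOgfod1 mice, with all 16 below 0 and 1 called. Without the 4 macrophage-rich libraries Bcl2 was at -0.78 and called (adjusted p = 0.0435), and without the 2 libraries that stand apart at -0.80 (adjusted p = 0.0175). Both of these fits leave out treated sgScramble replicate 4, whose Bcl2 RNA was the lowest of its group at 9.89 CPM, so they are not separate checks. Of 13 fits that leave out 1 library each, only the one without that replicate called Bcl2 (adjusted p = 0.0126). Bcl2l11 was called without treated sgOgfod1 replicate 1 (adjusted p = 0.0303).

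In footprints of sgOgfod1 cells 9 of the 10 genes had values on the lower side of sgScramble cells, but only 1 passed the test. In vehicle mice 0 were called, beside 1.81% of all genes, with 2 at an unadjusted p under 0.05 (17.1% of all genes), and 9 of 10 had a log2 fold change below 0, as did 9268 of 18290 genes. In treated mice 1 was called, beside 1.58%, and again 9 of 10 lay below 0, as did 8919 of 18290 genes. The called gene was Bcl2l11, at -1.09 ± 0.26 (adjusted p = 0.0451), with 2.11 and 2.16 CPM in treated sgOgfod1 mice against 4.03 to 5.59 CPM in treated sgScramble mice. That call was lost on leaving out any of 5 of the 6 mice, with an adjusted p of up to 0.163, and DESeq2 gave an adjusted p of 0.0557. In RNA of the 12 mice with footprints Bcl2l11 was lower as well, at -0.68 ± 0.14, and called (edgeR adjusted p = 0.026). Its footprints relative to RNA changed by -0.34 ± 0.25, which did not pass (adjusted p = 0.878). For footprints, Bbc3 was at -1.0 ± 0.31 (adjusted p = 0.121), Mcl1 at -0.36 ± 0.12 (adjusted p = 0.152) and Bax at -0.43 ± 0.15 (adjusted p = 0.164). Bad was at -0.56 ± 0.25 (adjusted p = 0.29) and Pmaip1 at -0.41 ± 0.18 (adjusted p = 0.292). These uncalled genes are named for an unadjusted p under 0.05, and the share of all genes at that cut is not given here. For 7 of the 10 genes both treated sgOgfod1 mice lay below all 4 treated sgScramble mice, as they did for 11.4% of all genes. Bid was the exception in sign, at 0.05 ± 0.13 in vehicle and 0.13 ± 0.14 in treated mice. Other markers lay lower there too. In footprints of treated mice 10 of 12 progenitor markers were below 0 (2 called lower, median -0.352), as were all 4 stromal markers tested (0 called, median -1.47), and their part was not tested. The counts of 9 held under RLE scaling, DESeq2, voom, no filter, the library number term and protein-coding genes alone. With a replicate block they were 8 in vehicle mice and 7 in treated mice. The interaction of guide and treatment was called for 0 of 10 genes in RNA and in footprints, beside 0% and 0.0656% of all genes, with 2 and 1 at an unadjusted p under 0.05 (4.54% and 9.29% of all genes).

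Footprints relative to RNA, the translation efficiency, was set by gene more than by group, as a description without a test. The ratio of footprint CPM to RNA CPM in the same mouse had a median over 11054 protein-coding genes of 0.317 to 0.349 in the 4 groups. Bak1 stood at 7.70 and 13.5 in treated sgOgfod1 mice, 6.17 to 9.01 in treated sgScramble mice, 5.12 to 8.40 in vehicle sgOgfod1 mice and 7.04 to 10.8 in vehicle sgScramble mice. That placed it between the 96.6th and 97.7th percentile of protein-coding genes. Exons of Bak1 overlap Ggnbp1 on the other strand, and the strand setting and the handling of multiply mapped reads are not given. Reads from elsewhere may thus be counted in, and their part in this ratio was not tested. Pmaip1 stood at the other end, with group means of 0.0411 to 0.0675 and percentiles of 1.07 to 2.59. Bcl2 had means of 0.0718 to 0.108 and Bcl2l11 of 0.0839 to 0.112. Bax lay near the median gene, between percentiles 50.0 and 57.8, while Bbc3 ran from 46.6 to 61.9 and Bad from 33.4 to 62.3. RNA reads are counted over whole exons and footprints fall on the coding part, so the ratio includes the length outside the coding sequence. Bcl2 has 9157 bases of exon with a longest coding sequence of 708 bases, Bcl2l11 has 8029 with 588, and Bak1 has 2407 with 627.

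**Figure D4:**
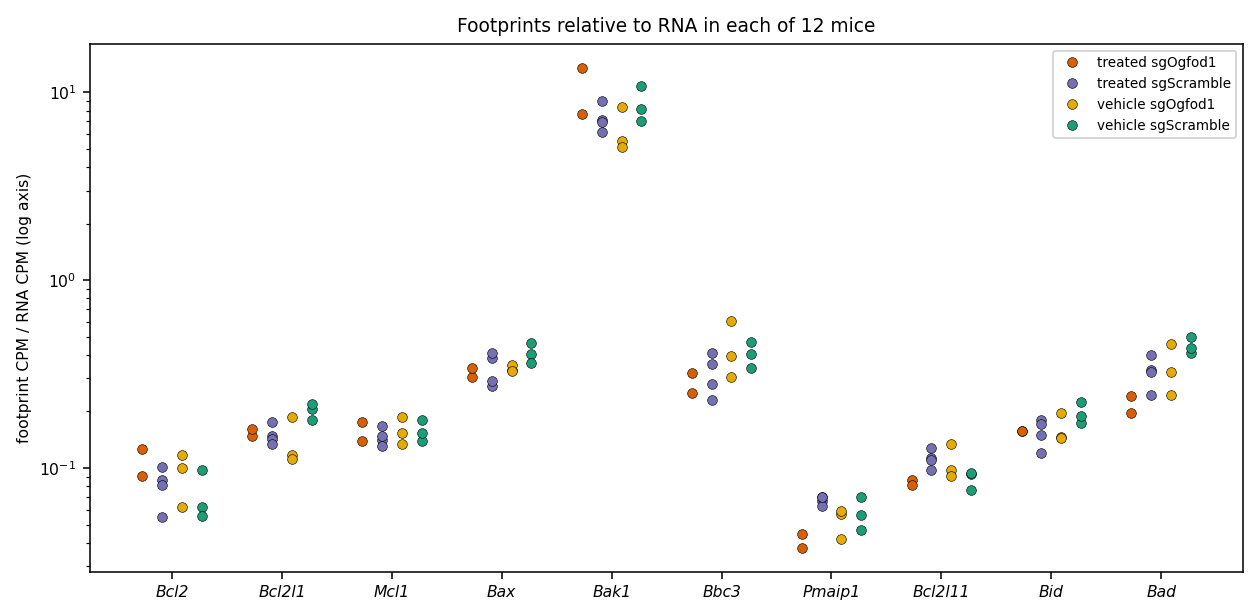
Footprint CPM divided by RNA CPM in each of the 12 mice with both assays, on a log axis. Points are mice, coloured by group, with treated sgOgfod1 leftmost for each gene. Bak1 lies between 5.12 and 13.5, while the other 9 genes lie below 1.

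No change of translation efficiency passed for any of the 10 genes in the 5 comparisons (edgeR, assay-by-group term with the mouse as a block), beside 0.0839% of 28606 genes with treatment in sgOgfod1 cells and 0.93% in sgScramble cells. For the guide the background was 0.0489% in treated and 0.0594% in vehicle mice, and for the interaction 0%. This fit tested more genes than RNA (21474) or footprints (18290) alone, so its shares are not like for like with theirs. With protein-coding genes alone 883 genes passed with treatment in sgScramble cells, against 266, and still 0 of the 10. At an unadjusted p under 0.05 there was 1 gene with treatment in sgOgfod1 cells (5.32% of all genes), 0 in sgScramble cells (11.2%), 1 for the guide in treated mice (6.75%), 0 in vehicle mice (7.2%) and 1 for the interaction (5.81%). The genes were Bak1 with treatment in sgOgfod1 cells, at 0.84 ± 0.31 (adjusted p = 0.707), Pmaip1 for the guide in treated mice, at -0.64 ± 0.18 (adjusted p = 0.308), and Bak1 for the interaction, at 1.03 ± 0.39 (adjusted p = 0.763).

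Compared per length, Mcl1 was the most abundant of the 10 RNAs in every group. In vehicle sgScramble mice it averaged 115 CPM per kilobase of exon, followed by Bid at 50.7, Bax at 35.7, Pmaip1 at 35.5, Bcl2 at 7.71, Bad at 7.48, Bcl2l1 at 5.30, Bcl2l11 at 3.76, Bbc3 at 3.56 and Bak1 at 1.20. The neighbours Bax and Pmaip1, Bcl2 and Bad, and Bcl2l11 and Bbc3 overlapped in range in these 5 mice, and the other neighbours did not. In treated sgScramble mice the order was Mcl1 at 155, Bax at 72.9, Bid at 55.1, Pmaip1 at 44.9, Bcl2l1 at 11.1, Bad at 9.90, Bbc3 at 6.52, Bcl2l11 at 5.59, Bcl2 at 2.67 and Bak1 at 1.63. Here ranges of neighbours overlapped within each of these sets: Mcl1, Bax, Bid and Pmaip1, then Bcl2l1, Bad, Bbc3 and Bcl2l11, and last Bcl2 and Bak1. Within the sets, Mcl1 (from 128) still lay above all values of Bid (up to 76.6) and Pmaip1 (up to 53.8). Bax (from 53.9) lay just above Pmaip1, and Bcl2l1 (from 8.47) just above Bcl2l11 (up to 8.42). All genes were measured in the same mice, and their order within each mouse was not compared. Bcl2 lay below all 4 genes of the middle set, in which the highest Bbc3 value, 15.4, was replicate 4. Footprints per kilobase of coding sequence gave another order, with Bak1 in place 3 in every group. In vehicle sgScramble mice it averaged 42.6 footprint CPM per kilobase, below Mcl1 at 65.3 and Bid at 57.0 and above Bax at 38.1.

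The promoters of these genes were searched for the binding letters of factors known to control parts of the family, namely CACGTG (the E-box of the MYC group), TGTTTAC (forkhead factors such as FOXO3), TTCNNNGAA (STAT factors), TGATGNAA (the composite element of ATF4 and CHOP) and the p53 consensus of a pair of half-sites over 20 bases, each on both strands. RefSeq promoters of GRCm38.p6, from 250 bases before to 50 after a start, gave 15 windows for 9 of the 10 genes. Below, lower case is the window 5' to 3' in the direction of the gene and capitals mark each match. Bax, Bcl2l11 and Bbc3 are shown for their matches and Bcl2, which fell, for having none. Bcl2l1, which rose, and Mcl1, Bid, Bak1 and Bad had no match in their windows either.
Bax, chr7:45466849-45467148, minus strand: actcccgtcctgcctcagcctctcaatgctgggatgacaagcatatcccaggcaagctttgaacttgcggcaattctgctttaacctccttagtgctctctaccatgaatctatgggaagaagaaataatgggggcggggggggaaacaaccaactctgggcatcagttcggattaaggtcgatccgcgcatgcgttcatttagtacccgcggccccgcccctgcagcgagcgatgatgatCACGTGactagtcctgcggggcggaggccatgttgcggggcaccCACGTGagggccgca
Bcl2l11, chr2:128125788-128126087, plus strand: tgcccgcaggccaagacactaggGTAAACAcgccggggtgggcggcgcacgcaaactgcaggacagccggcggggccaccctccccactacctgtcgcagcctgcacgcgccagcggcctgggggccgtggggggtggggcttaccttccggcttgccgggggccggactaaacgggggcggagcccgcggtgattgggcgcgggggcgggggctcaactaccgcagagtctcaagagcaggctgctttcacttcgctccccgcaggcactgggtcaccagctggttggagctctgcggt
Bbc3, chr7:16309333-16309632, plus strand: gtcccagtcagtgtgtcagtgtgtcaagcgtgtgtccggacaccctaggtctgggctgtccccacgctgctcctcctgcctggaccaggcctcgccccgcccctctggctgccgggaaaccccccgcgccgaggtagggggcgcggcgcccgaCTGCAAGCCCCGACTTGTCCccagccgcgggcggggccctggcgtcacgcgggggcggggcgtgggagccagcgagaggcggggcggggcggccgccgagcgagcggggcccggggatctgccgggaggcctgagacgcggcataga
Bcl2, chr1:106714241-106714540, minus strand: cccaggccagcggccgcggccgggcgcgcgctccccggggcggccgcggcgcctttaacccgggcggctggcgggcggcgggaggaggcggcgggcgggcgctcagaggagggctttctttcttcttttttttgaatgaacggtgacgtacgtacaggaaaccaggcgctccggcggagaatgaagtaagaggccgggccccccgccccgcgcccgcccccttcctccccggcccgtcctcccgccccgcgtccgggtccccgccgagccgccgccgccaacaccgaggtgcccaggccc

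The Bax window holds CACGTG at 2 places, starting 9 bases before and 36 bases after the start, and 7.15% of 32851 promoters hold it. The Bcl2l11 window holds TGTTTAC, read on the other strand, from 227 bases before the start, against 3.65% of promoters. The Bbc3 window shown holds a p53 pair 97 bases before the start that is 3 bases off the consensus. This limit was widened after the windows were seen, and 1.38% of promoters reach it. With at most 2 bases off, 0 of the 15 windows held a p53 pair, against 0.326% of promoters. Another Bbc3 window holds TGTTTAC 167 bases before its start, and a further window holds CACGTG 64 bases before. TTCNNNGAA and TGATGNAA were in 0 of the 15 windows, against 8.3% and 3.97% of promoters. A match describes letters only, and no binding was measured.

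Around the 10 genes, other parts of the pathway moved in places. Of 15 further BCL2 family genes, 13 were tested in RNA, and 3 rose and 0 fell with treatment with either guide. The 3 were the same, Bcl2a1a, Bcl2a1b and Bcl2a1d, copies of the survival gene A1 that share reads, so their values are uncertain. The median change of the 13 was 0.387 in sgOgfod1 and 0.407 in sgScramble cells. Bcl2a1a averaged 27.0 ± 11.7 CPM in treated sgOgfod1 and 9.88 ± 2.11 in vehicle sgOgfod1 mice, and 20.7 ± 9.15 in treated sgScramble and 5.78 ± 1.10 in vehicle sgScramble mice (log2 fold changes of 1.45 and 1.84, adjusted p = 0.00424 and 0.000469). A1 is also abundant in neutrophils, and neutrophil markers rose in these samples, with 9 of 12 called higher in sgOgfod1 and 10 of 12 in sgScramble cells. Their part in the rise was not tested. The mitophagy gene Bnip3 fell in footprints of sgScramble cells (-0.62 ± 0.18, adjusted p = 0.0316).

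Of 13 apoptosome and caspase genes, 0 rose and 2 fell in RNA of treated sgOgfod1 cells, and 2 rose and 1 fell in sgScramble cells, with median changes of -0.106 and -0.000717. Casp6, an executioner caspase, rose in sgScramble cells (1.55 ± 0.29, adjusted p = 0.000972), with an interaction of -0.83 ± 0.39 that did not pass (adjusted p = 1). Casp2, an initiator caspase, fell in RNA with either guide (-0.57 ± 0.16 in sgOgfod1 and -0.53 ± 0.15 in sgScramble cells, adjusted p = 0.0239 and 0.0246). In footprints of sgScramble cells Casp2 fell as well (-0.62 ± 0.13, adjusted p = 0.00522). Dffa, the inhibitor of a caspase-activated nuclease, fell in footprints with either guide (-0.76 ± 0.23 and -0.65 ± 0.19). Under the Ogfod1 guide, footprints were higher on Aifm1, a mitochondrial flavoprotein, in vehicle mice (0.57 ± 0.13) and on Htra2, a mitochondrial protease, in treated mice (0.54 ± 0.13), each the only gene of this list called there.

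Of 10 death receptor genes, 1 rose in RNA of treated sgOgfod1 cells and 3 rose in sgScramble cells, with median changes of -0.0129 and 0.25. Fas, a death receptor and p53 target, rose with either guide, at 43.6 ± 15.2 CPM in treated sgOgfod1 against 19.4 ± 4.84 in vehicle sgOgfod1 mice, and 51.7 ± 17.8 in treated sgScramble against 20.7 ± 2.27 in vehicle sgScramble mice (1.16 and 1.32, adjusted p = 0.00357 and 0.000836). Tnfrsf10b, the TRAIL receptor, rose in footprints of sgScramble cells (2.14 ± 0.38, adjusted p = 0.00181), and its interaction with the guide did not pass (-2.01 ± 0.55, adjusted p = 0.291). Of 8 inhibitors of apoptosis, 0 were called in RNA of sgOgfod1 cells and 1 fell in sgScramble cells, Birc5 (-0.35 ± 0.10, adjusted p = 0.0251), with median changes of -0.16 and -0.32. Of 12 outer membrane partners, 0 were called with treatment in RNA with either guide, with 3 and 4 at an unadjusted p under 0.05, beside 25.8% and 26.8% of all genes, and median changes of 0.182 and 0.16.

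Regulators of the family were given 18 names, which matched 19 identifiers because Ddit3 has 2. In RNA 5 rose and 3 fell with treatment in sgOgfod1 cells, and 5 rose and 0 fell in sgScramble cells, with median changes of -0.101 and -0.00552. Mdm2, the p53 target that degrades p53, rose by 0.75 ± 0.14 and 0.63 ± 0.13 (adjusted p = 0.00125 and 0.00318). Pim1, a kinase that phosphorylates BAD, rose by 2.54 ± 0.56 and 2.75 ± 0.56, at 6.98 ± 5.69 CPM in treated sgOgfod1 against 1.20 ± 0.828 in vehicle sgOgfod1 mice, and 6.52 ± 4.21 in treated sgScramble against 0.965 ± 0.0721 in vehicle sgScramble mice. Trib3, a pseudokinase of the amino acid stress response, rose by 4.41 ± 0.66 in sgOgfod1 and 1.77 ± 0.56 in sgScramble cells, at mean levels of at most 3.64 CPM. Footprints rose on Atf4, the amino acid stress factor, by 1.07 ± 0.20 in sgOgfod1 and 0.53 ± 0.17 in sgScramble cells (adjusted p = 0.00446 and 0.0421). With either guide, footprints fell on Stat5a and Stat5b, which are known as drivers of Bcl2l1 in blood cells. Their part in the Bcl2l1 values here was not tested. Stat5b changed by -0.74 ± 0.16 in sgOgfod1 and -0.48 ± 0.13 in sgScramble cells (adjusted p = 0.00869 and 0.0187), and Stat5a by -0.62 ± 0.16 and -0.41 ± 0.13 (adjusted p = 0.0208 and 0.0379). In footprints 16 regulators were tested, of which 2 rose and 2 fell in sgOgfod1 cells and 4 rose and 4 fell in sgScramble cells. The sgScramble values of Trib3, Atf4 and Stat5a are given beside their sgOgfod1 values and were chosen after they were seen.

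The RNA of the 10 genes followed different partners across the 23 libraries. Among 8790 protein-coding genes with at least 10 CPM outside the lists, Bcl2 was most like Mef2d (r = 0.936), Bcl2l1 most like Dtnb (r = 0.946), Mcl1 most like Cd84 (r = 0.897), Bbc3 most like Flot1 (r = 0.941), Pmaip1 most like Mospd1 (r = 0.904), Bcl2l11 most like Tmem71 (r = 0.93), Bid most like Chmp7 (r = 0.889) and Bad most like Dda1 (r = 0.922). Bax was most like Gm45808 (r = 0.984), which overlaps it. Bak1 had no close partner, with Stab1 first at r = 0.509. These r describe libraries that share groups and depth.

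**Figure D5:**
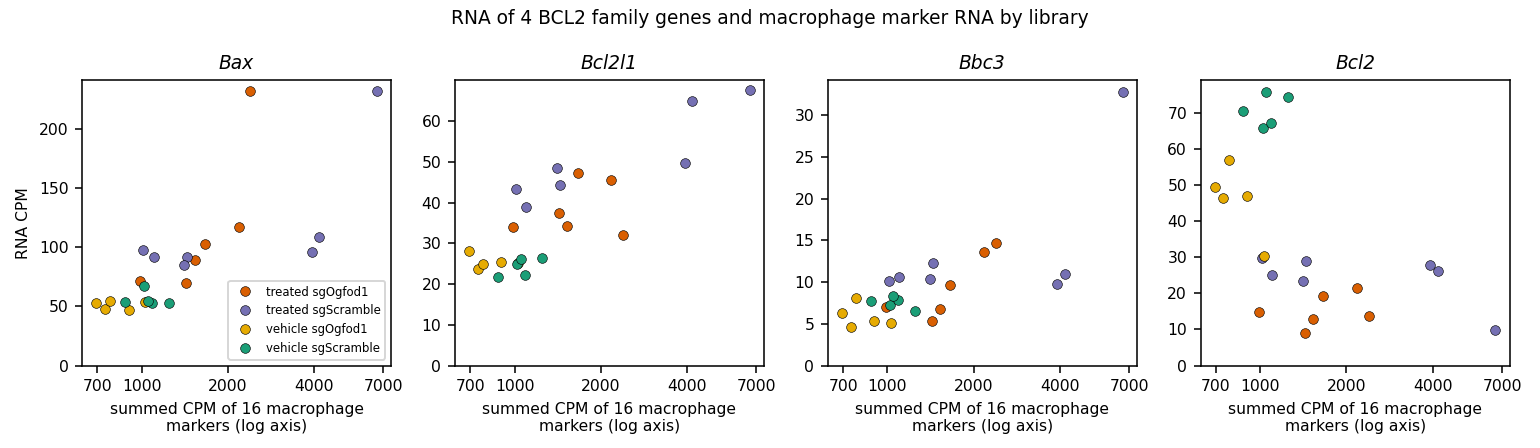
RNA level of Bax, Bcl2l1, Bbc3 and Bcl2 in CPM against the summed RNA CPM of 16 macrophage markers, on a log axis, in each of the 23 libraries. The library farthest right, at 6640 marker CPM, is treated sgScramble replicate 4, with 232 CPM of Bax and 9.89 CPM of Bcl2, while treated sgScramble replicates 6 and 7, at 3930 and 4180 marker CPM, have 95.8 and 109 CPM of Bax.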

How the data were processed

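Each library is 1 mouse. From a 20 µl lysate, 2 µl went to Smart-seq2 and the rest to RNase I footprinting, per the labels' protocols. The deposited values are raw counts of reads per Ensembl gene, made by the authors. The tools named in the submitters' processing notes are featureCounts, STAR, Bowtie2, cutadapt and SAMtools, and the builds are GRCm38 and mm10. Versions, strand setting and the handling of multiply mapped reads are not given in the sources used here. Of 55487 genes, 55227 were named through GENCODE for GRCm38, which also gave coordinates.

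Counts were tested with edgeR 4.0.16 in R 4.3.3, using TMM scaling, filterByExpr and the robust quasi-likelihood test. Each assay had a single model over its 4 groups, leaving 19 (RNA) and 8 (footprints) degrees of freedom for the spread. Translation efficiency was the assay-by-group term over the 12 mice with both assays, with the mouse as a block. P-values were adjusted over all genes by the Benjamini-Hochberg method. SE is the log2 fold change divided by the root of the test statistic. CPM uses TMM-scaled library sizes, and PCR copies were not told apart. The code was tested on simulated data.

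All 10 genes were tested in every comparison, and each is named for treatment in RNA and in footprints. For the guide, the interaction and the tests of translation efficiency only some of them are named. Of each further list up to 4 called genes with the smallest p could be named per comparison, and likeness took the highest Pearson r of log2 CPM over 23 libraries. The members and lists were chosen with earlier results of these data known. Of 12 footprint libraries, 10 were closest to the RNA of their own mouse. Replicates differed beyond sampling noise, with a chi-square per degree of freedom of at least 17.2 in RNA and 6.2 in footprints. Alternatives were RLE scaling, DESeq2 1.42.0, limma 3.58.1 voom, no filter, protein-coding genes alone, a replicate block, a term for library numbers from 17 up, subsets of mice and leaving out each replicate.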

Additional observations from a re-analysis of the deposited data

Results flagged for a closer look

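In 50 groups of 4 to 10 libraries, 1 for each gene, assay and group of that size, 10 had a library whose gap to its neighbour was large against the whole range of the group. Chance alone flags about 1 group in 20.

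Treated sgScramble replicate 4 accounts for 5 of the 10. It was lowest for Bcl2 RNA at 9.89 CPM and highest for Bax at 232, Bbc3 at 32.8, Bcl2l11 at 67.6 and Bad at 47.0 CPM, and it had the most macrophage marker RNA of all libraries. Treated sgOgfod1 replicate 3 was highest for Bax RNA at 232 CPM. Treated sgOgfod1 replicate 1 was highest for Mcl1 RNA at 845 CPM and treated sgScramble replicate 7 at 776 CPM. In vehicle sgScramble mice, replicate 1 was highest for Bax RNA at 67.0 CPM and replicate 5 lowest for Bad RNA at 15.1 CPM.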

How the results depend on the processing

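The counts of genes called out of 10 held within 1.5 times, except as follows. With treatment in RNA of sgScramble cells, voom with sample weights called 8 against 4. For the guide in RNA of vehicle mice, voom called 1 (Bcl2) against 0. For the guide in RNA of treated mice, against 0, DESeq2 called 1 (Bcl2l11) and voom called 1 (Bcl2). The fit without the 2 libraries that stand apart called 1 (Bcl2). The fit without the 4 macrophage-rich libraries, chosen after seeing the data, called 1 (Bcl2). The 12 mice with footprints called 2 (Bcl2 and Bcl2l11). Each of these subsets of mice leaves out treated sgScramble replicate 4, the lowest of its group for Bcl2 RNA. With treatment in footprints, a term for library numbers from 17 up called 1 against 3 in sgScramble cells and 0 against 1 in sgOgfod1 cells, where voom also called 0. For the guide in footprints of treated mice, DESeq2, voom, the library number term and the replicate block each called 0 against 1.

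Leaving out each replicate gave 4 to 5 genes with treatment in RNA of sgScramble cells and 0 to 1 for the guide in RNA of treated mice. In footprints it gave 0 to 2 with treatment in sgOgfod1 cells, 1 to 3 in sgScramble cells and 0 to 1 for the guide in treated mice.

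Equal replicate numbers in different groups are different mice, and in no comparison did every pair correlate above 0.1 (r of pairs from -0.313 to 0.619 in RNA and from -0.0912 to 0.0725 in footprints). With the replicate block 4 genes were called with treatment in RNA of sgOgfod1 cells and 3 in sgScramble cells, where Bcl2l11 was lost (adjusted p = 0.0586), and 1 and 3 in footprints. For single genes 2350 alternative values kept their side of the threshold, 26 lost a call, 19 gained one, 65 uncalled values moved by more than 1 SE, and 0 called values changed sign. Over all genes, counts of calls in RNA were 2120 with treatment in sgOgfod1 cells (850 to 4479 over the alternatives), 2779 in sgScramble cells (1479 to 5687), 84 for the guide in treated mice (29 to 587), 25 in vehicle mice (3 to 426) and 0 for the interaction (0 to 18). In footprints they were 1503 (6 to 2091), 2847 (1365 to 3810), 289 (2 to 929), 331 (70 to 1012) and 12 (1 to 260) in the same order. For translation efficiency they were 24 (7 to 276), 266 (49 to 883), 14 (7 to 341), 17 (1 to 401) and 0 (0 to 173), and 0 of the 10 genes was called in any of the alternatives run. Footprints on Bcl2, Bbc3 and Bcl2l11 rest on few reads, which limits them.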
